A study of Mus musculus with 58 samples.

Results

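Trunk and duct wells of the mouse embryonic pancreas were described across embryonic days E13.5 to E18.5. They were the wells of 5 single-cell plates in which Sox9 and Spp1 transcripts were found together, and they numbered 180 of the 1361 wells that passed the depth filter. A well was kept with at least 2000 transcripts and 500 genes. A kept well was a member with at least 1 transcript of Sox9, at least 5 of Spp1, Spp1 at more than 2 times Cpa1, fewer than 2 transcripts of Neurog3 and no Tyrobp. Insulin (Ins1 plus Ins2), Gcg and Sst each had to stay under 1% of the well's transcripts. The members were thus selected on measured values of 9 genes, and the levels of those genes are given below as description, without a test.

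The cells came from pancreases dissected out of embryos of female mice carrying MIP-GFP, a transgene that reports insulin promoter activity through GFP. Single cells free of a viability dye were sorted into 384-well plates without selection on GFP, and SORT-seq counted the transcripts in each well by unique molecular identifiers. One live-sorted experiment each was analysed at E13.5 (EP12), E14.5 (EP14) and E18.5 (EP16), and 2 at E15.5 (EP10 and EP17). No group differed in genotype or treatment, the labels do not state how many embryos or litters went into an experiment, and p-values therefore measure the spread between these 5 experiments. Where 5 values are listed below, they stand in the order E13.5, E14.5, E15.5 of EP10, E15.5 of EP17 and E18.5, and a level is in CPM, a gene's transcripts scaled to the total of the summed wells of a set.

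In the embryonic pancreas, branching epithelium separates into tips, which give rise to acinar cells, and an inner trunk, which gives rise to duct cells and, through a transient burst of the transcription factor Neurog3, to endocrine cells. Trunk cells are known for Sox9 and active Notch signalling, and mature duct cells line fluid-carrying tubes, bear a primary cilium and secrete bicarbonate. The Hippo pathway restrains the coactivator Yap, which acts through TEAD factors on targets such as Ctgf and Cyr61. Spp1, osteopontin, is a secreted phosphoprotein of ducts, Dcdc2a encodes a doublecortin-domain protein found at cilia, and Bicc1 encodes an RNA-binding protein whose loss gives cystic tubules.

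Stretches of 3 promoters are shown because these genes of the Hippo list stood among those higher in the members. They are RefSeq sequences of build GRCm38.p6, read 5′ to 3′ along each gene's own strand, with matches in capitals. The letters searched were GGAATG for the TEAD motif, on both strands, in the 250 bases before the gene's start. The 4 genes searched were Ctgf, Cyr61, Ajuba and Amotl2, and all but Ctgf, 3 genes, were in the promoter table. Yap1, Wwc1, Ankrd1 and Tead2 of the same list were also higher in the members and were not searched.

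Cyr61, chr3:145650023-145650148, minus strand: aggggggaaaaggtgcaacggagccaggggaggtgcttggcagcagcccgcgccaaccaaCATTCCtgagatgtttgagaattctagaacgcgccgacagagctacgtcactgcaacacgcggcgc
Ajuba, chr14:54577760-54577907, minus strand: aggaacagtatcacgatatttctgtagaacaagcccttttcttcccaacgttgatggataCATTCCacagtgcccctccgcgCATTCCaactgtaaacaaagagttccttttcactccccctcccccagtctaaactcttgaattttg
Amotl2, chr9:102717679-102717803, plus strand: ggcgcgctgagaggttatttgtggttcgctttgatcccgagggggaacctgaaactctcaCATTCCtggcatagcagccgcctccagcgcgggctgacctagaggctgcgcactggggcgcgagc

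The capitals are the reverse complement of the TEAD letters. The match began 103 bases before the start in Cyr61, 65 before it in Amotl2, and 186 and 164 before it in Ajuba, which held 2 matches. The TEAD letters were present in 4153 of 32851 promoters (12.6%). Since the genes searched were a chosen part of the list, no excess of matches over this share is read. These matches describe letters and no binding was measured.

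Members were found in every experiment, in unequal shares. There were 51 of 347 kept wells at E13.5, or 14.7% (Wilson 95% interval 11.4 to 18.8), and 35 of 319 at E14.5, or 11% (8.0 to 14.9). At E15.5 the share was 4.5% (2.7 to 7.6), 13 of 288 wells, in EP10 and 16.3% (10.9 to 23.6), 21 of 129 wells, in EP17. At E18.5 it was 21.6% (17.2 to 26.8), 60 of 278 wells. The 2 experiments of E15.5 lay further apart than E13.5 and E18.5 did, and no order of stages was read from the shares. The intervals cover counting error only. The labels list 3 libraries for the E14.5 plate and 4 for each of the other plates, while each plate has 384 wells in the table, and wells cannot be assigned to libraries.

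**Figure D1:**
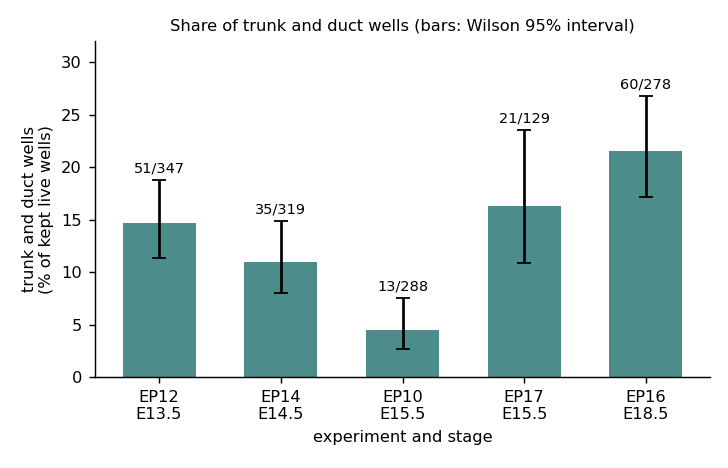
Share of kept live wells that were trunk and duct wells, in percent, for each experiment by embryonic day, with Wilson 95% intervals. The shares ran from 4.5% in EP10 to 21.6% at E18.5, and the intervals of the 2 experiments of E15.5 do not meet.

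The members held 1024984, 998924, 469971, 172474 and 952054 transcripts in all, and their median per well was 18715, 28331, 36971, 6070 and 13908. EP17 was thus the thinnest and a gene at 5.8 CPM there stands for a single transcript. Shares of wells with a transcript are therefore given after each well was thinned to 2000 transcripts, except where a count is said to be unthinned.

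The label was checked against the marker genes. Spp1 itself ran at 2544, 3351, 2981, 4917 and 7093 CPM in the members, and Sox9 at 929, 1012, 1247, 1241 and 1589 CPM. Of the markers that the rule did not use, Dcdc2a had a transcript in 23.5, 31.4, 46.2, 23.8 and 68.3% of thinned member wells, against 2.7, 3.9, 5.8, 2.8 and 1.8% of the other live wells. Tip and acinar wells, which should lack it, had it in 0.0, 0.0, 6.3 and 2.8% in the 4 experiments that held such wells. Bicc1 was present in 27.5, 48.6, 53.8, 42.9 and 53.3% of thinned member wells, against 3.7 to 11.5% of the others. Unthinned, Epcam, an epithelial adhesion molecule, had a transcript in all members at E13.5, E14.5 and in EP10, in 81.0% in EP17 and in 98.3% at E18.5.

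Wells just inside and just outside the limits of the rule are described here without a test. The 2 members with 5 or 6 Spp1 transcripts held Col3a1, a fibrillar collagen, at 4668 CPM over their summed transcripts, and the 6 wells just outside, with 3 or 4, held it at 8248 CPM. The 24 members with 1 Neurog3 transcript had Dcdc2a at 350 CPM, and the 12 otherwise matching wells with 2 or 3 had it at 582 CPM. Where Spp1 was 2 to 4 times Cpa1 (9 members) Dcdc2a stood at 76 CPM, and where it was 1 to 2 times Cpa1 (12 wells outside) at 92 CPM. Dcdc2a in the members at the Neurog3 limit lay within the range of the 5 member sums, 204 to 633 CPM, and in those at the Cpa1 limit below it.

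Transcripts of other cell types were present in the members, and in a few experiments at more than in the other wells. The acinar and tip list (27 genes outside the rule) summed to 413, 369, 1428, 2279 and 1602 CPM in the members and to 8116, 6577, 16118, 52986 and 112 CPM in the other wells, with 2 genes at 0 in all members, so at E18.5 the members held more. The mesenchyme list (17 genes) summed to 1256, 1687, 1955, 1879 and 2434 CPM against 3157, 8025, 7825, 1295 and 29295 CPM, so in EP17 the members held more. Of these sums Vim, vimentin, made up 1209, 1512, 1498, 1844 and 764 CPM in the members, and 3 genes, Pdgfrb among them, were at 0 in all members. The endothelial list summed to 12 to 40 CPM, the immune list to 6 to 28 CPM and the neural list to 0 to 72 CPM in the members, with 5 endothelial and 3 immune genes at 0. The 3 members that held at least 0.2% of their transcripts as Col1a1, Col1a2 and Col3a1 (0.24, 0.42 and 3.06%) were all from E18.5. The one at 3.06% had 5 Spp1, 2 Sox9 and 173 Dcn transcripts and no Epcam.

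Hormone transcripts below the limit of the rule were also there. Ins2 stood at 1.9, 11, 74.6, 171 and 341 CPM in the members, and at E18.5 56 of 60 members, unthinned, held at least 1 transcript of it. Sst stood at 0.0, 1.0, 0.0, 76.2 and 197 CPM and Gcg at 56.5, 53.1, 4.2, 52.1 and 185 CPM. Since the rule capped these genes, their levels are description only.

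Set beside the other live wells of the same plates, the members were marked by duct, junction, Hippo target and basement membrane genes, and they lay low in acinar, endocrine and mesenchymal genes. Of 11128 genes tested with edgeR's quasi-likelihood test, with the experiment as a block, 974 were higher (8.75%) and 1960 lower (17.6%) at a Benjamini-Hochberg adjusted p under 0.05. The rule separated these same wells, so the counts and folds describe the separation and nothing is read from the percentages. The median log2 difference over all genes was -0.07.

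Of 22 genes of the duct and trunk list tested, 16 were higher in the members and 0 lower, with a median log2 difference of 1.32. Dcdc2a (chr13:25056004-25210706, plus strand, GRCm38) stood at 204, 240, 396, 249 and 633 CPM in the members and at 18.3, 22.2, 37.6, 4.8 and 23.9 CPM in the other wells. The ranges did not overlap, and the log2 difference was 3.77 ± 0.25 (SE, n = 5, adjusted p = 1.86e-06 by edgeR). Bicc1 (chr10:70922832-71159700, minus strand) stood at 141, 264, 426, 226 and 381 CPM against 36.9, 50.4, 68.1, 18.2 and 86.0 CPM, a log2 difference of 2.31 ± 0.17. Its lowest member sum lay above the highest sum of the other wells too.

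Further genes of this kind were Krt8, a keratin of simple epithelia, at a log2 difference of 1.70 ± 0.16, and Pkhd1, the fibrocystin gene of polycystic kidney and liver disease, at 3.12 ± 0.40. Among the genes with the largest differences, Wfdc10 stood at 109, 149, 89.4, 168 and 153 CPM against 2.9 to 8.2 CPM, a log2 difference of 4.06 ± 0.23. Ppp1r1b, a phosphatase inhibitor, differed by 3.75 ± 0.33. Adamts16, a secreted metalloprotease, differed by 3.30 ± 0.27, and Palmd, palmdelphin, by 3.46 ± 0.37.

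Transcription factors of the pancreatic epithelium split. Of 18 tested, 6 were higher and 2 lower, with a median of 0.16. Hhex, a homeobox factor of the ducts, stood at 169, 169, 166, 209 and 326 CPM against 51.5, 40.1, 19.4, 11.5 and 51.6 CPM, a log2 difference of 2.42 ± 0.24. The ranges did not overlap. Isl1, an endocrine factor, was lower by a log2 difference of -6.06 ± 0.29, and Gata4, retained in tips, by -2.33 ± 0.31.

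Notch genes moved in both directions, 4 higher and 5 lower of 21, with a median of -0.34. Nrarp, a target and feedback inhibitor of Notch, stood at 161, 115, 70.2, 52.2 and 30.5 CPM against 27.3, 14, 20.6, 20.1 and 12.7 CPM, a log2 difference of 2.07 ± 0.27. The receptor gene Notch2 differed by 1.29 ± 0.18. The ligand gene Dll4 differed by -4.08 ± 0.56 and the glycosyltransferase gene Mfng by -4.69 ± 0.51. Hes1, the best-known Notch target, was looked up after its values were seen. It stood at 400, 412, 253, 812 and 750 CPM against 185, 183, 307, 459 and 87.1 CPM, lower in the members of EP10 and higher in the other 4 experiments, and did not pass the test (1.02 ± 0.37, adjusted p = 0.0641).

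Of the Hippo and Yap list, 8 of 18 genes were higher and 0 lower, with a median of 0.39. Ctgf, a secreted matricellular Yap target, stood at 19, 132, 213, 58.0 and 183 CPM against 6.4, 6.2, 13.2, 0.0 and 6.4 CPM. The E13.5 members were the lowest and still above every sum of the other wells, and the log2 difference was 3.82 ± 0.41. Cyr61, of the same family, stood at 407, 1300, 2051, 986 and 1614 CPM against 126, 403, 445, 144 and 633 CPM (1.78 ± 0.17). Its E13.5 member sum lay inside the range of the other wells, though above that of its own plate. Ajuba, a LIM protein of the pathway, differed by 2.12 ± 0.29 and Amotl2, an angiomotin that binds Yap, by 0.76 ± 0.18. The immediate early list, genes induced within minutes of a stimulus, summed to 3947, 6045, 11182, 9016 and 10451 CPM in the members against 3846 to 12086 CPM in the other wells. In the members this sum and Cyr61 were both lowest at E13.5 and highest in EP10. Of its 22 genes, 6 were higher in the members and 8 lower, Klf2 (-3.32 ± 0.25) and Klf4 (-2.47 ± 0.16) among the latter. Among the wells the authors had kept, where E13.5 and E14.5 alone could be fitted, Klf4 differed by 0.15. The part of the immediate early list in the Hippo result was not tested.

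Genes of the epithelial surface came next. Of the tight junction and polarity list 20 of 24 genes were higher and 1 lower, with a median of 1.08. The claudin gene Cldn3 stood at 123, 303, 438, 307 and 485 CPM against 47.8, 60.4, 90.3, 101 and 27.3 CPM, a difference of 2.20 ± 0.33. Cldn7 differed by 1.48 ± 0.23 and Cldn6 by 1.40 ± 0.22. Primary cilium genes mostly did not differ, with 5 higher and 2 lower of 24 and a median of 0.06, and Cys1, encoding the ciliary protein cystin, was among the 5 (2.60 ± 0.23).

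Ion transport genes showed 4 higher and 2 lower of 15. Atp1b1, the beta subunit of the sodium pump, stood at 822, 898, 900, 812 and 1568 CPM against 145 to 237 CPM, a log2 difference of 2.34 ± 0.18. The bicarbonate cotransporter gene Slc4a4 differed by 1.52 ± 0.18. Cftr, the chloride channel of mature ducts, had 0.0, 4.0, 0.0, 5.8 and 13.7 CPM in the members and was too low to be tested.

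Basement membrane and integrin genes were 8 higher and 2 lower of 15, with a median of 0.80. Col18a1, a basement membrane collagen, stood at 441, 507, 406, 278 and 251 CPM against 33.5 to 124 CPM (1.83 ± 0.20). Nid1, nidogen, which mesenchyme makes in quantity, was lower by -4.48 ± 0.22.

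Of receptors and Wnt genes, 10 of 29 were higher and 4 lower. Fgfr2, the receptor of the mesenchymal signal Fgf10, stood at 302, 303, 211, 244 and 543 CPM against 25.9 to 80.8 CPM (2.80 ± 0.26). The ligand gene Wnt7b differed by 3.27 ± 0.32, the insulin-like growth factor receptor gene Igf1r by 1.29 ± 0.17 and Met, the hepatocyte growth factor receptor gene, by 1.16 ± 0.15. Member and other sums did not overlap for any of these 4 genes.

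Genes of other lineages lay low. The acinar factors Ptf1a and Bhlha15 differed by -4.28 ± 0.27 and -5.01 ± 0.42, and 12 of 21 acinar and tip genes were lower, 0 higher. All but 3 of 22 endocrine precursor genes were lower, among them Neurod1 (-6.09 ± 0.35), Pax6 (-6.29 ± 0.33) and Chga (-5.20 ± 0.21), and 0 were higher. Of 16 mesenchyme genes 15 were lower, with Col3a1 at 14.6, 53.1, 121, 17.4 and 286 CPM in the members against 346 to 6103 CPM in the other wells. Pdgfrb, a pericyte receptor gene, had no transcript in the members and 18.2 to 103 CPM in the other wells. Wt1 of mesothelium (-3.85 ± 0.31), Csf1r of macrophages (-4.00 ± 0.33), Pecam1 of endothelium (-4.50 ± 0.67) and Tubb3 of neurons (-4.71 ± 0.35) were lower as well.

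A pair of genes often tied to mesenchyme and to neural crest did not follow these lists, and both were chosen after their values were seen. Vim, vimentin, stood at 1209, 1512, 1498, 1844 and 764 CPM in the members and at 831, 1004, 873, 234 and 1631 CPM in the other wells. It was higher in the members except at E18.5 and did not pass the test (0.58 ± 0.40, adjusted p = 0.342). Sox10 stood at 55.6, 36.0, 19.2, 0.0 and 49.4 CPM against 1.0 to 21.3 CPM and passed it (2.13 ± 0.47, adjusted p = 0.00599), with no transcript in the members of EP17.

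Growth-related genes were mixed. Cell cycle genes were 7 higher and 2 lower of 46. Ccnd1, the cyclin that drives entry into the cycle, stood at 495, 488, 547, 296 and 612 CPM against 24.9 to 209 CPM (2.12 ± 0.27). Cdkn1c, an imprinted inhibitor of the cycle, was lower (-1.51 ± 0.32), but its EP17 members, at 174 CPM, lay above the other wells of EP17, at 115 CPM. Against the wells of the other set that held Epcam alone its log2 difference was 0.04. Among the wells the authors had kept, where E13.5 and E14.5 alone could be fitted, it was 0.76. Of the fetal growth list 3 genes were higher and 8 lower of 15. Cited1, a transcriptional coregulator of embryonic epithelia, was at 261, 181, 166, 220 and 60.9 CPM against 6.4 to 56.1 CPM (2.57 ± 0.17), while the imprinted genes Peg10 (-4.64 ± 0.22), Mest (-3.49 ± 0.29) and Plagl1 (-2.81 ± 0.23) were lower.

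The share of wells with a transcript of the proliferation genes Mki67 or Top2a, after thinning, was 41.2, 37.1, 46.2, 52.4 and 28.3% among the members and 33.1, 26.8, 41.6, 41.7 and 19.3% among the other wells. Without thinning it was 74.5, 71.4, 84.6, 61.9 and 50% against 57.1, 54.2, 78.2, 57.4 and 37.6%. It was higher in the members in 5 of 5 experiments, and an exact sign-flip permutation test (2-sided) gave the smallest p that 5 experiments allow. Adjusted over the 17 shares compared, this p was 0.0817. Tip and acinar wells had 52.4, 52.9, 58.3 and 55.6% in the experiments that held them, above the members in each.

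**Figure D2:**
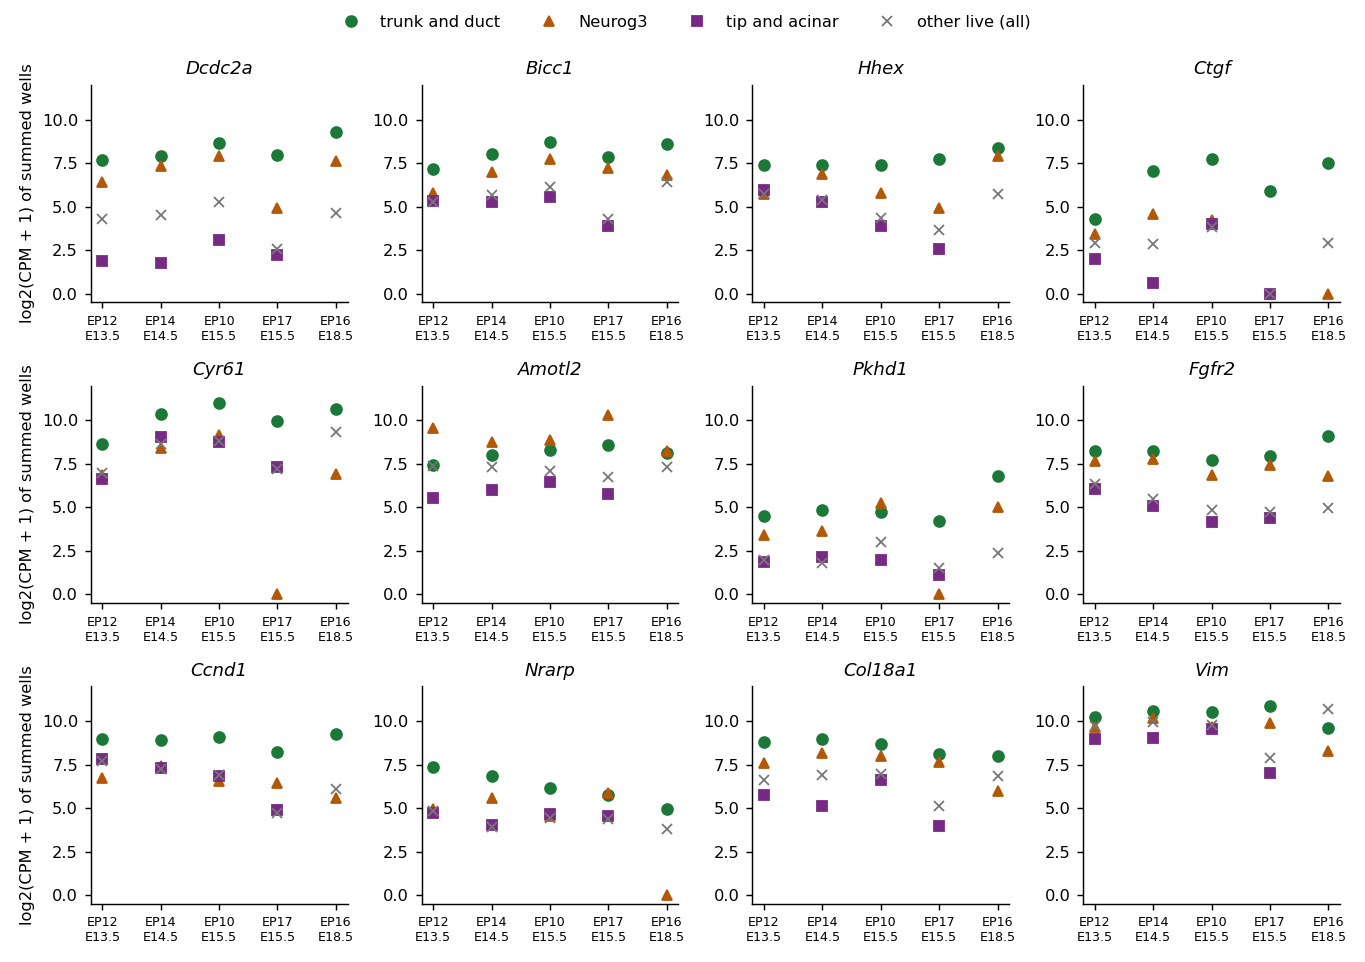
Level of 12 genes on a log2(CPM + 1) scale in the summed trunk and duct, Neurog3, tip and acinar and other live wells, with 1 point per experiment. Dcdc2a in the trunk and duct wells lay above the other live wells in every experiment, and Amotl2 in the Neurog3 wells lay above the trunk and duct wells in every experiment. The Neurog3 points of EP17 and E18.5 rest on 6 and 9 wells, too few for the tests.

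Against tip and acinar wells, the neighbouring epithelial compartment, the question was which genes part trunk from tip. The tip and acinar set was defined by Cpa1 of at least 5 and more than 2 times Spp1, with the same limits on Neurog3, Tyrobp and hormones. It held 333 wells (82, 51, 128 and 72) and none at E18.5, so 4 experiments entered. Of 10121 genes tested, 811 were higher in the members (8.01%) and 1079 lower (10.7%), with a median log2 difference of -0.01. The rule used this contrast too.

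Here 14 of 20 duct and trunk genes were higher and 2 lower, with a median of 1.41. Dcdc2a stood at 204, 240, 396 and 249 CPM in the members and at 2.6, 2.4, 7.6 and 3.7 CPM in tip and acinar wells, a log2 difference of 5.85 ± 0.21. Bicc1 differed by 2.65 ± 0.24, Krt7, a duct keratin, by 2.04 ± 0.17, and Krt18 by 1.30 ± 0.14. These markers parted the sets in all 4 experiments without overlap.

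Col2a1, a fibrillar collagen best known from cartilage, was among the largest differences. It stood at 405, 348, 87.2 and 11.6 CPM in the members against 8.5, 4.9, 3.9 and 1.2 CPM (5.22 ± 0.27). Col9a3 (5.02 ± 0.38) and Col9a1 (4.39 ± 0.33), chains of the same fibrils, differed likewise, as did S100b, a calcium-binding protein of glia and chondrocytes (5.52 ± 0.51), which stood at 8.8, 29.0, 87.2 and 151 CPM against 0.0 to 1.7 CPM. Pamr1, a secreted protease-like protein, differed by 4.26 ± 0.25. Col2a1 in the members of EP17 was a low value resting on 2 transcripts, while S100b was highest there.

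Transcription factors were 7 higher and 4 lower of 16. Nkx6-1, a trunk and later beta cell factor, stood at 65.4, 137, 132 and 11.6 CPM against 18.7, 41.0, 26.1 and 3.7 CPM (1.79 ± 0.20). Hhex differed by 2.41 ± 0.36, while Gata4 differed by -3.34 ± 0.25. Notch genes were 4 higher and 7 lower of 20, with Notch2 at 1.86 ± 0.19 and Nrarp at 2.09 ± 0.26 on the one side, and the ligand gene Dll1 at -4.11 ± 0.43 on the other. Id1, a target of bone morphogenetic protein signalling, differed by -1.64 ± 0.19.

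Hippo genes were 6 higher and 0 lower of 16, with Ctgf at 4.21 ± 0.46, Cyr61 at 1.83 ± 0.17 and Amotl2 at 1.93 ± 0.16. Cilium genes were 7 higher and 0 lower of 24, with Cys1 at 2.86 ± 0.37 and Pkhd1 at 2.93 ± 0.40. Tight junction genes were 9 higher and 0 lower of 24. Of ion transport genes 3 were higher and 1 lower of 13, with Atp1b1 at 2.37 ± 0.21 and the chloride cotransporter gene Slc12a2 at -0.81 ± 0.25.

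Basement membrane genes were 8 higher and 2 lower of 14. Col18a1 differed by 2.93 ± 0.26 and the laminin chain gene Lamc1 by 1.34 ± 0.15, whereas the integrin gene Itga6 differed by -2.46 ± 0.23. Receptor and Wnt genes were 7 higher and 1 lower of 27, with Wnt7b at 3.99 ± 0.45, Fgfr2 at 2.87 ± 0.23, Fgfr3 at 2.87 ± 0.35 and Igf1r at 1.83 ± 0.19. The acinar genes Clps (-4.89 ± 0.12), Cela1 (-5.92 ± 0.21), Spink3 (-6.20 ± 0.22) and Bhlha15 (-6.18 ± 0.40) were among 21 of 22 acinar genes that were lower. Cell cycle genes were 1 higher and 5 lower of 46.

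Neurog3 wells, chosen by the factor that marks the endocrine precursors of the trunk, were the third set compared. They held at least 2 Neurog3 transcripts within the same limits on Tyrobp and hormones, and numbered 113 (45, 33, 20, 6 and 9). The 12 wells described above, with 2 or 3 Neurog3 transcripts and otherwise within the members' rule, are among them. Those 12 held Neurod1 at 8.2 CPM, against 7.5 CPM in the 24 members with 1 Neurog3 transcript. Not every Neurog3 well is thus shown to be a precursor, and the part of the 12 in the differences was not tested. The last 2 experiments had too few wells to sum, so E13.5, E14.5 and EP10 were tested. Of 9524 genes, 930 were higher in the members (9.76%) and 1085 lower (11.4%), with a median log2 difference of 0.01. With DESeq2 595 genes passed, 157 higher and 438 lower in the members, so the higher side lost more of its calls. The counts by list below are those of edgeR. The rule used this contrast as well.

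The members exceeded the Neurog3 wells in proliferation genes. Of 46 cell cycle genes 28 were higher and 0 lower, with a median of 0.59. Ccnd1 stood at 495, 488 and 547 CPM against 104, 170 and 91.5 CPM (2.09 ± 0.16). Cdca7 (1.36 ± 0.18), Ube2c (0.79 ± 0.12) and the cyclin gene Ccna2 (0.78 ± 0.14) differed in the same direction. Of 8 inhibitors of the cycle 6 were lower and 0 higher. Cdkn1a, the p53 target p21, stood at 77.1, 94.1 and 89.4 CPM against 723, 578 and 657 CPM (-2.89 ± 0.14), and Gadd45a, a stress and arrest gene, at 38.0, 22.0 and 14.9 CPM against 758, 281 and 477 CPM (-4.22 ± 0.18). After thinning, 24.4, 12.1 and 25.0% of Neurog3 wells had Mki67 or Top2a, below the members of the same experiments at 41.2, 37.1 and 46.2%.

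Notch genes moved in both directions, 6 higher and 7 lower of 22. The ligand genes Dll1 and Dll4 stood at 0.0 to 3.0 CPM in the members of these experiments and at 38.3 to 70.1 CPM in the Neurog3 wells (-4.47 ± 0.41 and -5.10 ± 0.51). Mfng, which modifies the receptors, had 1.0, 0.0 and 0.0 CPM in the members against 121, 91.9 and 75.3 CPM (-7.49 ± 0.47), and Hes6 differed by -1.79 ± 0.18. Nrarp, by contrast, stood at 161, 115 and 70.2 CPM against 29.4, 47.2 and 22.1 CPM (1.80 ± 0.23). The other called genes, Dll3, Jag1, Notch2, Notch3, Lfng, Id1, Id2 and Id3, were named after their values were seen, and roles did not each keep 1 direction. Dll3 was lower (-6.18 ± 0.69) like the ligand genes Dll1 and Dll4, but the ligand gene Jag1 was higher, at 11.7, 29.0 and 40.4 CPM against 5.6, 14 and 20.7 CPM (1.04 ± 0.36, adjusted p = 0.0498). The receptor genes Notch2 and Notch3 and the genes Id2 and Id3 were higher too, and Id1 and the receptor modifier Lfng lower. Jag1 did not pass with DESeq2 (adjusted p = 0.657) or without any 1 of the 3 experiments (0.0995 to 0.265), and Notch3, Id1 and Id3 did not pass with DESeq2. Without EP12 the adjusted p was 0.0663 for Notch3 and 0.158 for Id1, and without EP14 it was 0.0614 for Id3.

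Hippo genes were split here too, 4 higher and 2 lower of 16. Ctgf (2.75 ± 0.31), Cyr61 (1.91 ± 0.09) and Ajuba (1.26 ± 0.18) were higher in the members, but Amotl2 stood at 175, 259 and 317 CPM against 750, 430 and 462 CPM (-1.12 ± 0.20). Immediate early genes were 11 higher and 3 lower of 20 in the same comparison, with Jun at 0.90 ± 0.09, Klf6 at 1.61 ± 0.17 and Atf3 at 2.20 ± 0.20. The part of these in the levels of Ctgf and Cyr61 was not tested.

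Duct and trunk genes were 14 higher and 2 lower of 20, with a median of 0.70. The 2 lower were Krt7, which had been higher against tip and acinar wells, and Anxa4. After thinning, Krt7 had a transcript in 27.5, 37.1 and 30.8% of members and in 53.3, 69.7 and 25.0% of Neurog3 wells. Dcdc2a differed by 0.83 ± 0.14 and Bicc1 by 1.15 ± 0.14. Krt18 (0.82 ± 0.10), Cdh1, E-cadherin (0.69 ± 0.10), and Cldn3 (1.36 ± 0.15) were also higher, and so was Atp1b1 (1.02 ± 0.09). Vim differed by 0.62 ± 0.09. Among factors, Hhex was higher (1.20 ± 0.20) while Foxa2 (-1.32 ± 0.15) and Rfx3, a factor of ciliated and endocrine cells (-1.55 ± 0.17), were lower.

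Basement membrane genes were 5 higher and 0 lower of 14, with Lama1 at 82.0, 70.1 and 70.2 CPM against 33.6, 26.8 and 28.0 CPM (1.34 ± 0.22) and Col18a1 at 0.93 ± 0.12. Sox10 (1.43 ± 0.31), Cited1 (1.06 ± 0.18) and Hmga2, a chromatin protein of embryonic cells (0.81 ± 0.10), were higher. Of 25 receptor and Wnt genes 5 were higher, Fgfr2 among them, and 3 lower. The lower ones were Kit (-2.24 ± 0.23), Ror2 and Fgfr3, so Fgfr3 was above tip and acinar wells but below Neurog3 wells. All 22 endocrine precursor genes were lower in the members, among them Neurod1 (-7.21 ± 0.27), Insm1 (-7.54 ± 0.24), Pax4 (-7.46 ± 0.30) and Chgb (-6.08 ± 0.13). Of 5 sex-linked genes 0 were higher and 2 lower, the Y-linked genes Ddx3y and Eif2s3y, with a median of -0.55. The part of the embryos' sex in this comparison was not tested.

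The members were not uniform within an experiment. Dcdc2a ran from 0.0 CPM to 1119 CPM over the 51 wells of E13.5, with a median of 154, and from 0.0 to 1965 CPM over the 60 wells of E18.5, with a median of 593. Bicc1 ran from 0.0 to 357 CPM (median 120) at E13.5 and from 62.4 to 999.6 CPM (median 355) at E18.5, where every member held it. The highest Dcdc2a well, at 2147 CPM, was in EP17 at E15.5, the experiment with the lowest depth per well. Without thinning, wells with no Dcdc2a transcript were present in every experiment except EP10.

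By the variance over the mean, variation between member wells was largest for 3 genes of the cycle, among genes averaging at least 0.5 transcripts. Wells were thinned to 5000 transcripts, and the variance over the mean (Fano factor, 1 for counting alone) was taken within each experiment. Its median over the 5 experiments was 5.33 for Top2a, 4.97 for Ube2c and 4.34 for Pcna. H19 (4.17), Tuba1b (4.14) and Rn45s (4.0) came next, and Cyr61 had 3.58 and the immediate early gene Fos 3.42. The factor can grow with a gene's mean, so these values do not rank relative spread. Spp1, which chose the wells, had 2.85 and Sox9 2.59. Clu, the chaperone clusterin, had a mean of 1.67 transcripts per thinned well at E13.5 and 28.2 at E18.5, values that carry no test here.

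**Figure D3:**
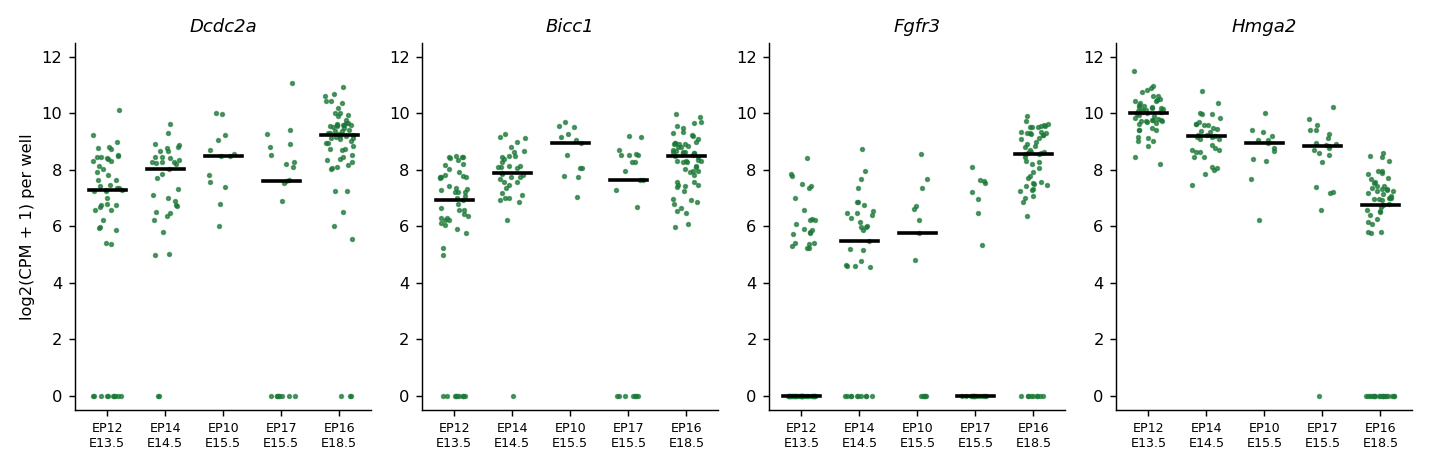
Level of Dcdc2a, Bicc1, Fgfr3 and Hmga2 in each trunk and duct well, in CPM, by experiment, with 1 point per well and a line at the median. The median of Fgfr3 was 0.0 CPM at E13.5 and 376 at E18.5, that of Hmga2 1022 and 108 CPM.

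Change with embryonic day inside the members does not use the rule's contrast. A slope per day was fitted over the 5 member sums. Of 9713 genes, 185 rose with stage (1.9%) and 41 fell (0.422%) at an adjusted p under 0.05 by edgeR, and the median slope over all genes was 0.01 log2 units per day. E18.5 rests on 1 experiment, EP16, and without it 26 genes passed, of which 4 were among the 226. Without EP12 26 genes passed and without EP14 69. Stage and experiment cannot be told apart at E13.5, E14.5 and E18.5. At E18.5 the authors had kept 9 of the 60 member wells.

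Of 13 ion and bicarbonate transport genes 5 rose and 0 fell, with a median slope of 0.20. Slc12a2, which loads chloride into secreting cells, stood at 42.9, 30.0, 51.1, 17.4 and 274 CPM, a slope of 0.63 ± 0.10 log2 units per day (adjusted p = 0.00505). It lay between 17.4 and 51.1 CPM up to E15.5 and was high at E18.5 alone, and without EP16 its slope was -0.00. Slc4a4 stood at 34.1, 31.0, 63.8, 40.6 and 128 CPM (0.43 ± 0.08). Aqp1, a water channel, at 2.9, 6.0, 10.6, 5.8 and 65.1 CPM (0.89 ± 0.12), and Ano1, a calcium-gated chloride channel, at 14.6, 14, 21.3, 40.6 and 102 CPM (0.62 ± 0.10), also rose. In each of these 4 genes the E18.5 sum was the highest. Kcnn4, a potassium channel of ducts looked up after its values were seen, was below the filter, with a transcript in 0, 3, 2, 0 and 36 member wells unthinned and in 0, 2, 0, 0 and 5 after thinning.

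Duct markers rose in part, 5 of 20 with 0 falling and a median slope of 0.24. Pkhd1 stood at 21.5, 28.0, 25.5, 17.4 and 112 CPM (0.51 ± 0.09, adjusted p = 0.00943). Ehf, an epithelial ETS factor, stood at 78.0, 78.1, 143, 244 and 348 CPM (0.47 ± 0.10), level at E13.5 and E14.5 and higher in each later experiment, and Anxa4, an annexin of epithelia, at 134, 170, 151, 168 and 430 CPM (0.35 ± 0.08). Dcdc2a passed narrowly (0.35 ± 0.08, adjusted p = 0.0469), and after the rule was applied to thinned wells its adjusted p was 0.108. Bicc1 (0.25 ± 0.11, adjusted p = 0.335), Hhex (0.21 ± 0.08, 0.208) and Cys1 (0.26 ± 0.09, 0.176) did not pass.

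The steepest rises were outside these lists. Scara3, a scavenger receptor (chr14:65919394-65953935, minus strand), stood at 19.5, 26.0, 63.8, 63.8 and 711 CPM, a slope of 1.10 ± 0.08 (adjusted p = 2.64e-05). Tm4sf4, a membrane protein of the tetraspanin-like family, stood at 29.3, 43.0, 66.0, 75.4 and 750.0 CPM (0.99 ± 0.08), Gas6, a ligand of Axl-family receptors, at 23.4, 41.0, 57.5, 23.2 and 588 CPM (0.97 ± 0.09), and Palmd at 4.9, 17, 55.3, 63.8 and 183 CPM (0.87 ± 0.12). Scara3, Tm4sf4 and Palmd already stood higher at E15.5 than at E13.5 in both experiments, and Gas6 did so in EP10 alone.

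Of 27 receptor and Wnt genes 1 rose, the fibroblast growth factor receptor gene Fgfr3 (chr5:33721674-33737068, plus strand). It stood at 46.8, 64.1, 95.8, 58.0 and 380 CPM (0.63 ± 0.08, adjusted p = 0.000758). Unthinned, it was found in 23 of 51, 25 of 35, 8 of 13, 8 of 21 and 51 of 60 members. After thinning it was found in 3.9, 8.6, 23.1, 9.5 and 51.7% of members and in 5.1, 2.5, 3.6, 4.6 and 1.4% of the other live wells, so the share was highest in the members of E18.5.

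Among the genes that fell, Gc, which encodes the vitamin D binding protein, stood at 313, 152, 76.6, 58.0 and 0.0 CPM (chr5:89417522-89457898, minus strand), and its slope without EP16 was -1.03 (adjusted p = 0.0396), against -1.41 ± 0.16 with it. Serpina6, corticosteroid-binding globulin, stood at 113, 166, 66.0, 23.2 and 0.0 CPM. Aldh1b1, an aldehyde dehydrogenase of pancreatic progenitors, stood at 500, 501, 328, 209 and 41.0 CPM (-0.75 ± 0.12), and Hmga2 at 1039, 627, 534, 475 and 117 CPM (-0.61 ± 0.10). All 4 were lower at E15.5 than at E13.5 in both experiments and lowest at E18.5.

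Also falling were the progenitor factor gene Sox11 (-0.59 ± 0.12), the cholecystokinin receptor gene Cckar (-0.73 ± 0.14), the cartilage collagen Col2a1 at 405, 348, 87.2, 11.6 and 22.1 CPM (-0.91 ± 0.17), and the growth factor midkine, Mdk, at 1911, 1605, 987, 1392 and 374 CPM (-0.47 ± 0.11). Nrarp (-0.47 ± 0.09, adjusted p = 0.0111) was the 1 Notch gene of 16 to change and fell over all 4 stages. Lama1 was the 1 basement membrane gene of 14, at 82.0, 70.1, 70.2, 69.6 and 8.4 CPM (-0.58 ± 0.14), low at E18.5 alone. Of 15 fetal growth genes 2 fell, and the RNA-binding gene Igf2bp3 (-0.35 ± 0.09, adjusted p = 0.0554) and Cited1 (-0.39 ± 0.10, 0.063) did not pass.

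Of 46 cell cycle genes 0 passed in edgeR (median slope -0.10), with 7 at an unadjusted p under 0.05 and 2 called by DESeq2. Of 18 Hippo genes 0 passed, with 5 at an unadjusted p under 0.05 and 1 called by DESeq2, and of 23 tight junction genes 0 passed, likewise with 5 and 1. Cdkn1b, the inhibitor p27, stood at 32.2, 35.0, 72.3, 92.8 and 116 CPM (0.38 ± 0.10, adjusted p = 0.0639) and did not pass. Of 23 cilium genes 2 rose.

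Other transcripts moved with stage in the same sums. Of 8 mesenchyme genes 5 rose, among them Dcn, decorin, at 2.9, 8.0, 46.8, 0.0 and 243 CPM (1.17 ± 0.14), Col1a1 (1.01 ± 0.13) and Col1a2 (1.05 ± 0.16). With the 3 collagen-rich members left out, an alternative chosen after seeing the data, their slopes were 0.70, 0.55 and 0.66 with adjusted p of 0.0724, 0.122 and 0.107, and 207 genes passed, of which 200 were among the 226. Of 16 acinar genes 3 rose, Cela2a at 1.0, 0.0, 12.8, 5.8 and 180 CPM (1.57 ± 0.14), Cela3b (1.55 ± 0.24) and Prss2 (0.99 ± 0.23). At E18.5 the acinar list was found in 55 of 60 member wells, unthinned, and 5 wells held 45.4% of it, while no kept well outside the members held more than 2 Cpa1 transcripts. Of 20 immediate early genes 4 rose, including Junb (0.84 ± 0.12) and Fosb (0.63 ± 0.11), and Ttr, transthyretin, rose too (0.44 ± 0.10), with a slope of -0.11 without EP16. The Y-linked genes Ddx3y, Eif2s3y, Kdm5d and Uty had no transcript in the members or the other wells of EP16 and were present in those of the other 4 experiments. The part of these shifts in the stage slopes was not tested.

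**Figure D4:**
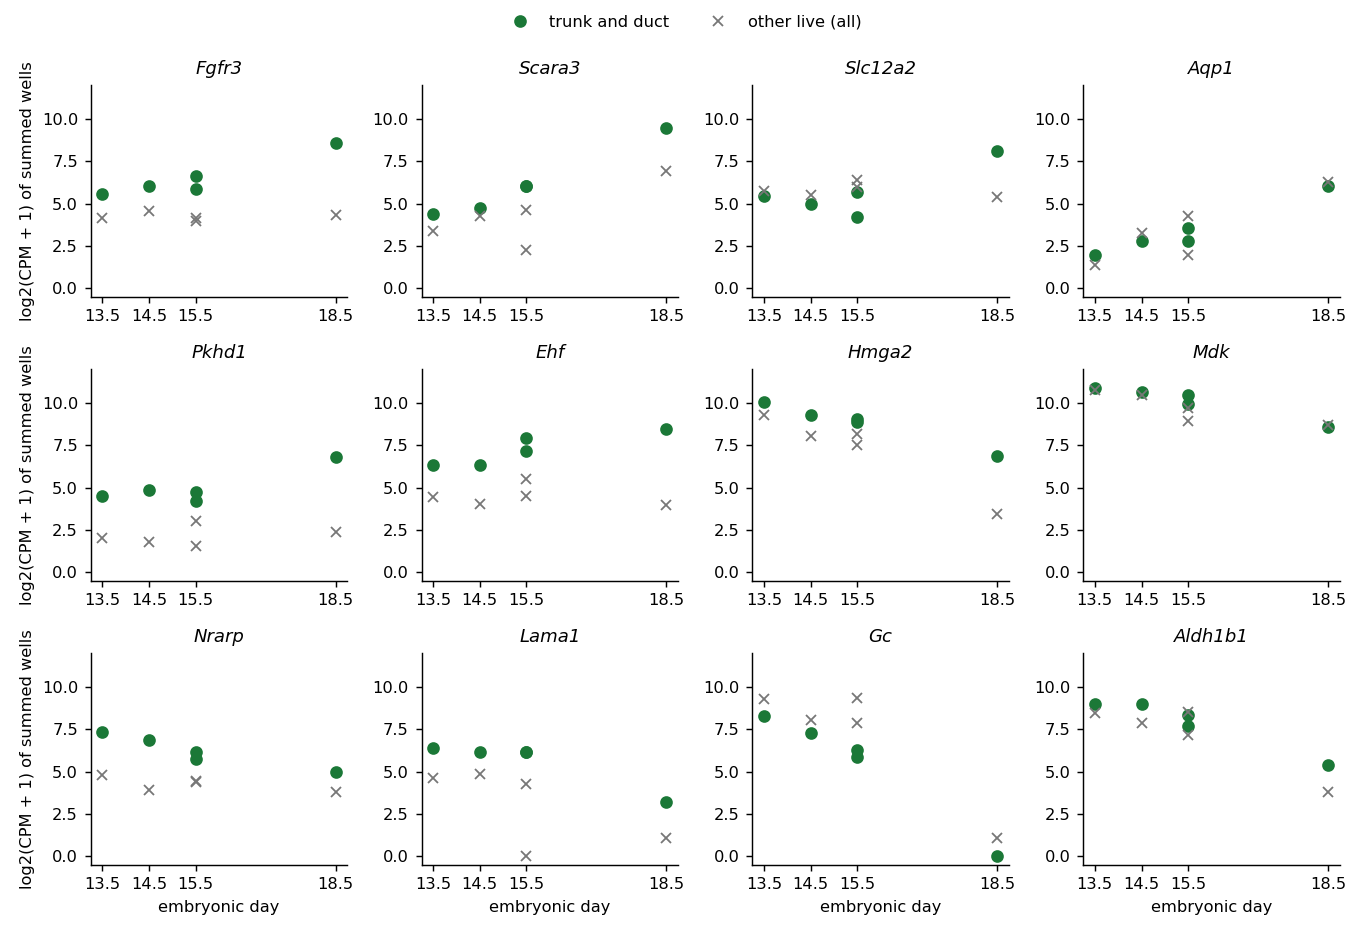
Level of 12 genes in the summed trunk and duct wells and in the summed other live wells, on a log2(CPM + 1) scale by embryonic day, with 1 point per experiment. Fgfr3 reached 380 CPM in the trunk and duct wells at E18.5 and 19.4 CPM in the other wells, while Hmga2 fell in both, to 117 and 9.7 CPM.

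Whether a slope differed between members and the other live wells was tested as an interaction in 1 fit over both sets. Of 11128 genes, 72 had a higher slope in the members (0.647%) and 27 a lower one (0.243%), with a median difference of 0.01. Without EP16 0 genes passed, with 362 at an unadjusted p under 0.05, and without EP17 440 passed. DESeq2 called 53. Without EP12, EP14 or EP10, 38, 36 and 45 passed. Within the lists described next, DESeq2 called 2 of 29 receptor and Wnt genes, 2 of 22 duct genes, 0 of 15 transport genes, 0 of 18 epithelial factors, 3 of 15 fetal growth genes and 8 of 21 acinar genes, where edgeR called 3, 5, 2, 2, 3 and 13.

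Of 29 receptor and Wnt genes 3, all fibroblast growth factor receptor genes, had a higher slope in the members and 0 a lower one. The other wells held Fgfr3 at 17, 22.3, 17, 14.4 and 19.4 CPM, and the slope in the members was higher by 0.60 ± 0.09 log2 units per day (adjusted p = 0.00436). Fgfr2 was higher by 0.41 ± 0.08, with 80.8, 44.5, 28.3, 25.9 and 30.7 CPM in the other wells. Fgfr4 was higher by 0.55 ± 0.12, at 66.3, 65.1, 70.2, 40.6 and 83 CPM in the members and 27.3, 19.8, 7.9, 2.9 and 5.6 CPM in the others. For Fgfr2 and Fgfr4 the other wells had less at E18.5 than at E13.5 and the members had more, and neither gene passed for slope within the members.

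Of 22 duct genes 5 had a higher slope in the members and 0 a lower one, with a median difference of 0.37. Ehf was higher by 0.52 ± 0.09 and Cldn3 by 0.51 ± 0.11. Car2, a carbonic anhydrase, stood at 2.9, 6.0, 2.1, 0.0 and 89.3 CPM in the members and 1.9 to 24.8 CPM in the others (1.25 ± 0.17), so its E18.5 members alone lay above the others, and without EP16 the difference in slope was -0.52. Ambp, a secreted protease inhibitor, stood at 541, 430.0, 232, 284 and 933 CPM against 631, 370.0, 208, 360.0 and 49.0 CPM (0.90 ± 0.16), and without EP16 the difference was -0.02. The factor gene Onecut2 was not seen in the members before E18.5, where it stood at 32.6 CPM, against 2.6 to 13.1 CPM in the other wells. Slc12a2 (0.69 ± 0.14) was the other transport gene to pass, with Car2, of 15, and its difference without EP16 was -0.29.

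Lower slopes in the members included Nkx6-1 (-0.47 ± 0.10), at 65.4, 137, 132, 11.6 and 29.4 CPM against 33.6, 74.6, 71.6, 6.7 and 71.8 CPM in the others, which include the endocrine wells. The imprinted growth genes H19 (-0.52 ± 0.07), Igf2 (-0.48 ± 0.09) and Dlk1 (-0.36 ± 0.07) were the 3 of 15 fetal growth genes to pass. H19 stood at 2628, 2081, 1692, 330 and 541 CPM in the members, and at 3281, 3288, 3856, 860.0 and 3794 CPM in the others, so both sets were low in EP17 and the members alone were low at E18.5.

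The largest differences in slope were in acinar genes, 13 of 21 higher and 0 lower. In the other wells the list summed to 52986 CPM in EP17 and to 112 CPM at E18.5, where no well met the tip and acinar rule. Cela2a stood at 17.8, 2.8, 200, 420.0 and 9.7 CPM in the other wells, and the difference was 2.81 ± 0.20, or -0.27 without EP16. The part of this change in the other wells in the count was not tested.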

How the data were processed

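Sorted live cells of embryonic mouse pancreas were profiled by SORT-seq, 1 cell to a well. The deposited table gives expected counts, in which the authors turned unique molecular identifiers into transcripts without scaling for depth. From the values, a correction for identifier collisions sets a ceiling of 1597 per gene, and no member reached it for Spp1. Alignment with BWA, use of Seurat and genome build mm10 are named without versions in the submitters' processing notes. The table of all wells held 19699 genes besides 89 spike-ins, and 0 mitochondrial genes. Of its 7296 columns 1920 belonged to the 5 live plates and were used, and 1536 matched no label. All libraries of a plate share 1 column prefix, so the replicate is the experiment, and the labels do not say that embryos or litters differed within one.

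Members and gene lists were chosen with earlier results of these data known. Counts were rounded and summed per experiment and set, with at least 10 wells per sum, and fitted in edgeR 4.0.16 under R 4.3.3. Scaling was TMM, low genes were removed with filterByExpr, and quasi-likelihood p-values were adjusted by Benjamini and Hochberg, with 0.05 as the threshold. Set comparisons had the experiment as a block. Slopes were per embryonic day, and their difference was fitted over members and other wells together. A standard error is the absolute log2 change over the square root of F. The 9 genes of the rule were left out of counts. The code was tested on simulated data with 200 planted changes of 2 log2 units, spread over the range of stages for slopes. It recovered 64.5% of them for the stage slope and 85.5% for the slope difference. Comparisons of sets recovered 99.5 to 100%. A slope that did not pass may thus still be a change. Shares of wells used thinning and exact permutation tests in Python 3.11.15 with numpy 2.4.6, pandas 2.3.3 and scipy 1.17.1, and figures matplotlib 3.10.9. No doublet caller was run on these single-cell sorts.

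Named genes were, per comparison, up to 10 per direction with the largest change among those past the threshold, at 50 CPM or more in a set and, between sets, with 1 direction in every experiment, plus up to 4 per list with the smallest p, and the markers. The text prints part of them. Alternatives were DESeq2 1.42.0, library sizes without TMM, no filter on low counts, each experiment left out, Spp1 of at least 3 or 10, the rule on wells thinned to 5000 transcripts, wells above 5 times their plate's median left out, the wells of the authors' smaller table, other wells with Epcam, no experiment term, E18.5 against the rest and 20 wells per sum. Promoters were RefSeq sequences and gene positions came from the GRCm38 annotation.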

Additional observations from a re-analysis of the deposited data

Results flagged for a closer look

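Among 53 genes of the comparison with other live wells, 2 had 1 experiment far from the other 4 in the log2 difference between members and other wells, and chance gives such a value in about 1 of 20. Both were in EP17, the shallowest experiment: Ajuba at 4.77 and Igf1r at 2.66.

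The 27 named genes whose stage slope differed between members and other live wells were tested by the interaction in edgeR, and none of the 99 differences over all genes passed without EP16. Higher slopes in the members were those of the digestive enzyme and acinar genes Cela3b (3.49 log2 units per day), Try5 (3.41), Cela2a (2.81), Prss2 (2.77), Amy2b (2.53), Cpb1 (2.51), Cel (2.12), Pnliprp1 (2.08) and Ctrb1 (2.05). Ctrb1, chymotrypsinogen, stood at 74.1, 95.1, 732, 1165 and 612 CPM in the members and at 2703, 2544, 6709, 23437 and 25.4 CPM in the other wells, so at E18.5 alone the members held more.

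Among epithelial and duct genes, the slope was higher in the members for Onecut2 (2.20, a value that depends on the fit's prior since 4 member sums were 0), Car2 (1.25), Ambp (0.90), Slc12a2 (0.69), Fgfr3 (0.60), Fgfr4 (0.55), Ehf (0.52), Cldn3 (0.51) and Fgfr2 (0.41).

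Lower slopes in the members were those of Prkcb (-0.87), Enpp2 (-0.85), Crip1 (-0.70), Nnat (-0.59), Igfbp4 (-0.55), H19 (-0.52), Igf2 (-0.48), Nkx6-1 (-0.47) and Dlk1 (-0.36). Prkcb, a protein kinase C gene, stood at 111, 104, 63.8, 17.4 and 6.3 CPM in the members and 83.3, 57.4, 52.8, 58.4 and 110.0 CPM in the other wells. Enpp2, autotaxin, stood at 132, 171, 80.9, 69.6 and 27.3 CPM against 64.3, 50.2, 44.3, 29.7 and 196 CPM. For both, the members exceeded the other wells at E13.5 and lay below them at E18.5.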

How the results depend on the processing

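Sets were compared within experiments, with the experiment as the block. By replicate number no paired analysis was possible because the columns carry no library numbers and the stages share no experiment. Leaving out each experiment in turn gave 1976 to 3578 genes (2934 with all) against other live wells, 873 (without EP14) to 2059 (without EP10) against tip and acinar wells (1890), and 1272 (without EP14) to 2201 (without EP10) against Neurog3 wells (2015), with 1338 without EP12. For the stage slope (226) it gave 26 (without EP12, and again without EP16) to 328 (without EP17), and for the slope difference (99) 0 (without EP16, 362 at an unadjusted p under 0.05 in edgeR) to 440 (without EP17). DESeq2 called 595 genes against Neurog3 wells and 53 slope differences. Without a filter on low counts the stage slope gave 513 and the slope difference 247. The slope became 141 genes when E18.5 was set against the other experiments, the tip comparison 2924 with the rule on wells thinned to 5000 transcripts, and the comparison with other live wells 836 without the experiment term.

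With library sizes alone the split against tip and acinar wells was 1273 higher and 723 lower, in place of 811 and 1079, with a median over all genes of 0.164, and against other live wells 1376 and 1719, in place of 974 and 1960. The authors had kept 42 of 51, 25 of 35, 4 of 13, 9 of 21 and 9 of 60 members. Most members of EP10, EP17 and E18.5 were thus not among the wells they kept. Among wells the authors had kept, members were 24.1% at E13.5, 21.9% at E14.5 and 7.8% in EP10. Slopes could not be fitted there for lack of wells. In those wells only E13.5 and E14.5 had at least 10 members to sum. Over these, Cdkn1c differed from the other wells by 0.76 and Klf4 by 0.15, so the choice of wells and the stages changed together. With Epcam required of the other wells Cdkn1c differed by 0.04. Leaving out 1 experiment moved the stage slope of Slc12a2 from -0.00 to 0.85 and that of Ttr from -0.11 to 0.59. It moved the slope difference of Cela2a from -0.27 to 2.98, of Car2 from -0.52 to 1.42, of Ambp from -0.02 to 1.14 and of Slc12a2 from -0.29 to 0.94, with each lowest value without EP16. Without EP16, 9 of the stage slopes named in the text kept their side of the threshold and direction. A gene that passed in neither fit counts among these 9. Of the others 22 lost their call and 2 turned, and the rest had no value there. Over all genes 4 of the 226 passed without EP16. The causes were not tested.

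Depth limits EP17 most, where 1 transcript in the summed members is 5.8 CPM, and genes below the filter, Cftr and Kcnn4 among them, were not tested. E13.5, E14.5 and E18.5 have 1 experiment each, so a slope borrows its spread from the fit's residuals, and at these stages the stage and the experiment cannot be told apart.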

Other observations

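H19, an imprinted non-coding RNA, varied between member wells of E18.5 more than at any other stage. Its Fano factor in wells thinned to 5000 transcripts was 18.9 there, on a mean of 2.97 transcripts, against 5.46 at E13.5 on a mean of 13.9. The E18.5 members include the 3 collagen-rich wells, 1 of them without Epcam, and the part of these wells in the H19 factor was not tested. Spp1 had its highest Fano factor at E18.5 too, 7.39 against 2.47 to 3.18 before. Its mean per thinned well was also highest there, 37.7 transcripts against 13.1 to 24.3, so no wider relative spread is read from the factor. Unthinned, it had a median of 92.5 transcripts per well at E18.5 (lowest 5, highest 418).

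Rn45s, the ribosomal RNA precursor, had a mean of 225 transcripts per thinned member well in EP10 and 0.29 to 17.6 in the other 4 experiments, and Malat1, a nuclear non-coding RNA, 19.4 in EP10 and 13.54 at E18.5 against 2.12 to 3.36 in the other 3. Both genes were picked after their values were seen, and their part in the differences between experiments was not tested.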
